A study of Homo sapiens with 52 samples.

Results

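The comparison set 4 TCP-seq libraries of human HEK293T cells lacking eIF2D against the 2 wild type (WT) TCP-seq libraries whose names in the labels run on directly with theirs. These 6 libraries were chosen by their labels and are 6 of the 52 samples of the series. HEK293T is an established line of embryonic kidney origin. The knockout (KO) libraries came from 2 lines, labelled #1 and #2 and called clone 1 and clone 2 below, with 2 libraries each, and the WT libraries were WT replicates 1 and 2. The labels give no treatment, no transgene and no account of how eIF2D was removed, and nothing says whether replicates were separate cultures. WT replicates 3 and 4, named next to 4 TCP-seq libraries of MCTS1 KO cells (clones #1 and #2), served as a second WT pair. The series also holds RNA-seq, Ribo-seq and Sel-TCP-seq libraries of HEK293T cells. Of the 52 samples, 42 had a column in the table. The other 10 (TCP-seq libraries whose labels say "empty" or name an eIF2D construct) were not analysed here.

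When a ribosome finishes a protein, its large subunit is split off and the small subunit stays on the mRNA with a tRNA from which the protein has been released. eIF2D, and the partner proteins MCTS1 and DENR, are known to remove that tRNA and help the small subunit leave the mRNA. TCP-seq (translation complex profile sequencing) fixes ribosomal complexes on mRNA and sequences the RNA that they protect, so that it also reads small subunits that scan or have not been recycled. Sel-TCP-seq reads the complexes that carry a chosen protein, here eIF2D, MCTS1 or DENR with a V5 tag.

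The 6 libraries held between 1922878 and 5053637 counts, and the median tested transcript had between 13 and 35 counts in a library. Counts were given for 226882 transcript identifiers, of which 152999 had a count in a TCP-seq library and 50991 passed the filter on low counts. No source used here pairs these identifiers with genes. Transcripts are therefore named by identifier, no gene is named, and the loss of eIF2D mRNA could not be checked in the KO libraries. Transcripts of one gene can share reads, so counts of transcripts are also given as groups whose counts moved together across libraries (correlation of their deviations from replicates above 0.95). Transcripts with nearly the same counts could still fall short of this correlation, as the named rises below did. The groups may thus outnumber the separate sources of reads. The libraries are bulk, without matching RNA-seq or Ribo-seq of eIF2D KO cells. More complexes per mRNA, more of the mRNA and a change in only some of the cells cannot be told apart.

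Few transcripts differed between eIF2D KO and WT in the mean of both clones, and more of them fell than rose. At an adjusted p under 0.05 (edgeR quasi-likelihood test, Benjamini-Hochberg over all 50991), 308 transcripts were higher (0.604%) and 515 were lower (1.01%), 1.61% in all. These were 194 and 349 groups of shared reads. The median change was 0.78 on the log2 scale among the higher and -0.73 among the lower, and 112 of the 308 and 125 of the 515 changed at least 2-fold. The excess of falls depended on the scaling. With library totals alone in place of TMM factors, 457 transcripts were higher and 298 lower. Leaving out WT replicate 2 reduced the count of 823 to 147, leaving out WT replicate 1 to 341, and leaving out clone 2 replicate 1, the deepest of the 6, to 281. DESeq2, run as an alternative, called 35 transcripts in the mean of clones and gave no adjusted p to 48441 of the 50991.

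The clones were also tested one at a time against the same WT pair. Clone 1 had 249 transcripts higher (0.488%) and 691 lower (1.36%), 1.84% in all. Clone 2 had 795 higher (1.56%) and 885 lower (1.74%), 3.29% in all. The 940 calls of clone 1 became 268 or 269 without WT replicate 1 or 2, and 312 or 582 without its own replicate 1 or 2, respectively. The 1680 of clone 2 became 662 or 468 without WT replicate 1 or 2, respectively, and 255 without its replicate 1. Of the 823 transcripts called in the mean of clones, 124 passed in each clone alone, 483 in clone 2 only, 179 in clone 1 only and 37 in neither. The change had one sign in both clones for 814 of the 823, which the rule of calling their mean favours.

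**Figure D1:**
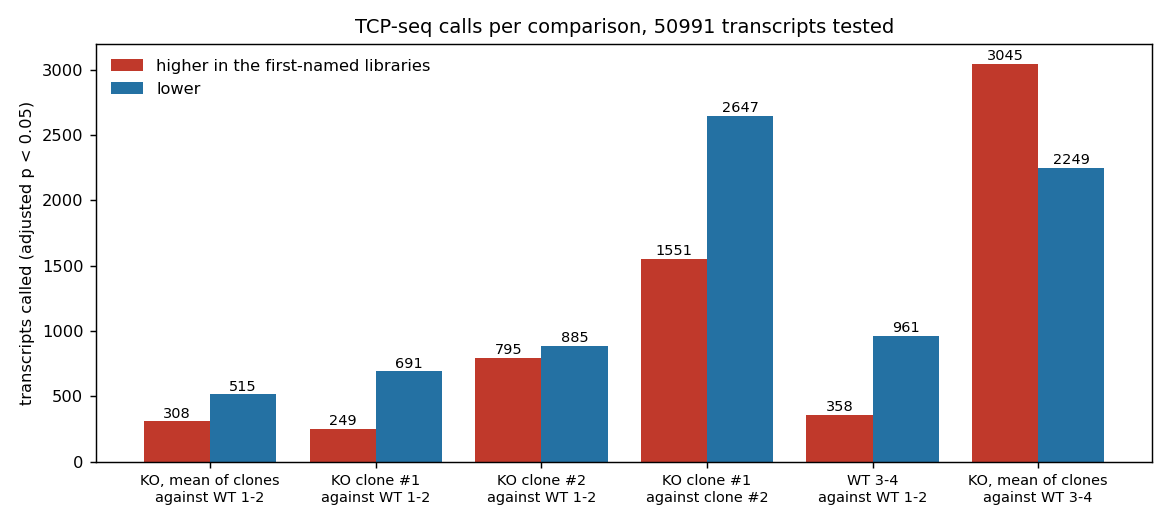
Number of transcripts (y axis) called higher (red) or lower (blue) at an adjusted p under 0.05 in each of 6 TCP-seq comparisons (x axis), out of 50991 tested. The clones differed from each other in more transcripts (1551 and 2647) than their mean differed from WT 1-2 (308 and 515), and the mean differed in more transcripts from WT 3-4 (3045 and 2249).

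Transcripts that moved alike were those called in clone 1 and in clone 2 separately with one sign. There were 41 such rises (0.0804% of those tested, 31 groups of shared reads) and 83 such falls (0.163%, 64 groups), and 8 transcripts in 4 groups were called in opposite directions (0.0157%). Both clones were set against the same 2 WT libraries, so an unusual WT value enters both tests. With library totals alone there were 90 rises and 27 falls. Leaving out WT replicate 1 left 4 rises and 80 falls, and leaving out WT replicate 2 left 23 rises and 15 falls. Among the KO libraries, the sum of 124 became 37 without clone 2 replicate 1, 72 without clone 1 replicate 1, 73 without clone 1 replicate 2 and 157 without clone 2 replicate 2. DESeq2 gave 6.

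Rises and falls differed in level. The 41 rises had a median of 8.56 CPM (counts scaled to the library total; from 2.37 to 92.3) over the 6 libraries and a median log2 change of 1.36, and 28 of them rose at least 2-fold in each clone. The 83 falls had a median of 34.9 CPM (1.34 to 7483) and a median log2 change of -0.76, and 14 of them fell at least 2-fold in each clone. Most rises were thus 2-fold or more, at levels near the median of 6.95 CPM over all tested transcripts, and most falls were smaller changes of transcripts well above it. The median SE of the log2 change was 0.326 among the rises and 0.146 among the falls. Smaller changes could thus be called among the falls, and the part of this in the contrast was not tested.

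The largest rise called in both clones at 5 CPM or more was that of ENST00000417400.1. It had 1.62 and 2.60 CPM in WT replicates 1 and 2, 8.51 and 9.28 in clone 1, and 10.9 and 9.84 in clone 2. It had 2.85 and 1.58 CPM in WT replicates 3 and 4 and between 1.86 and 2.12 in the MCTS1 KO libraries. All 4 eIF2D KO libraries were above all 8 others, with no overlap. The log2 change was 2.19 ± 0.40 (SE, 4 KO and 2 WT libraries) with an adjusted p of 0.00021 by edgeR's quasi-likelihood test, and it was 2.05 in clone 1 and 2.33 in clone 2. Against WT replicates 3 and 4 it was 1.98 ± 0.41 (SE, edgeR adjusted p = 0.00013). The WT levels rest on 5 counts in each of replicates 1 and 2, and without WT replicate 1 the change of 1.75 had an adjusted p of 0.14.

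The second rise named, with only the most abundant transcript of each group of shared reads eligible, was ENST00000450875.5. It had nearly the same counts as the first: the 2 transcripts differed by at most 2 counts in any TCP-seq library. It went from 1.95 and 2.60 CPM in WT replicates 1 and 2 to 8.10 and 9.56 in clone 1 and 10.7 and 9.84 in clone 2, a log2 change of 2.04 ± 0.39 (SE, edgeR adjusted p = 0.00043). Again all 4 KO libraries were above the 8 others. In another group of shared reads, 2 transcripts that were not its most abundant ones rose slightly more, by 2.08 each. It may count largely the same reads, and without WT replicate 1 its adjusted p was 0.15.

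The steepest fall above 5 CPM that was present in both clones was that of ENST00000379333.5. It had 12 and 11.4 CPM in WT replicates 1 and 2, 3.24 and 4.10 in clone 1, and 2.97 and 4.02 in clone 2. The second WT pair had 10.6 and 12.6 CPM, and MCTS1 KO libraries between 9.65 and 16.9. The 4 eIF2D KO libraries were therefore below every WT and MCTS1 KO library. The log2 change was -1.80 ± 0.30 (SE, 4 KO and 2 WT libraries; edgeR adjusted p = 1.7e-05), and against WT replicates 3 and 4 it was -1.78 ± 0.31 (SE, edgeR adjusted p = 3.2e-06). In WT cells it had 12.6 CPM in both RNA-seq libraries and 7.76 and 7.53 CPM in Ribo-seq.

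ENST00000618052.1 fell from 23.3 and 20.8 CPM in WT replicates 1 and 2 to 4.46 and 7.64 in clone 1 and 9.70 and 5.81 in clone 2. The level was 12.6 and 15.3 CPM in WT replicates 3 and 4, and in MCTS1 KO libraries it lay between 14.0 and 27.9. All 4 KO libraries were below the 8 others, but the WT pairs themselves were apart. The log2 change was -1.68 ± 0.22 (SE, edgeR adjusted p = 2e-08) against WT replicates 1 and 2 and -1.0 ± 0.26 (SE, edgeR adjusted p = 0.0036) against replicates 3 and 4. This transcript was almost without reads in WT RNA-seq, at 0.025 and 0 CPM, and had 44.6 and 52.4 CPM in WT Ribo-seq. Both named falls held an adjusted p under 0.05 with each of the 6 libraries left out in turn.

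**Figure D2:**
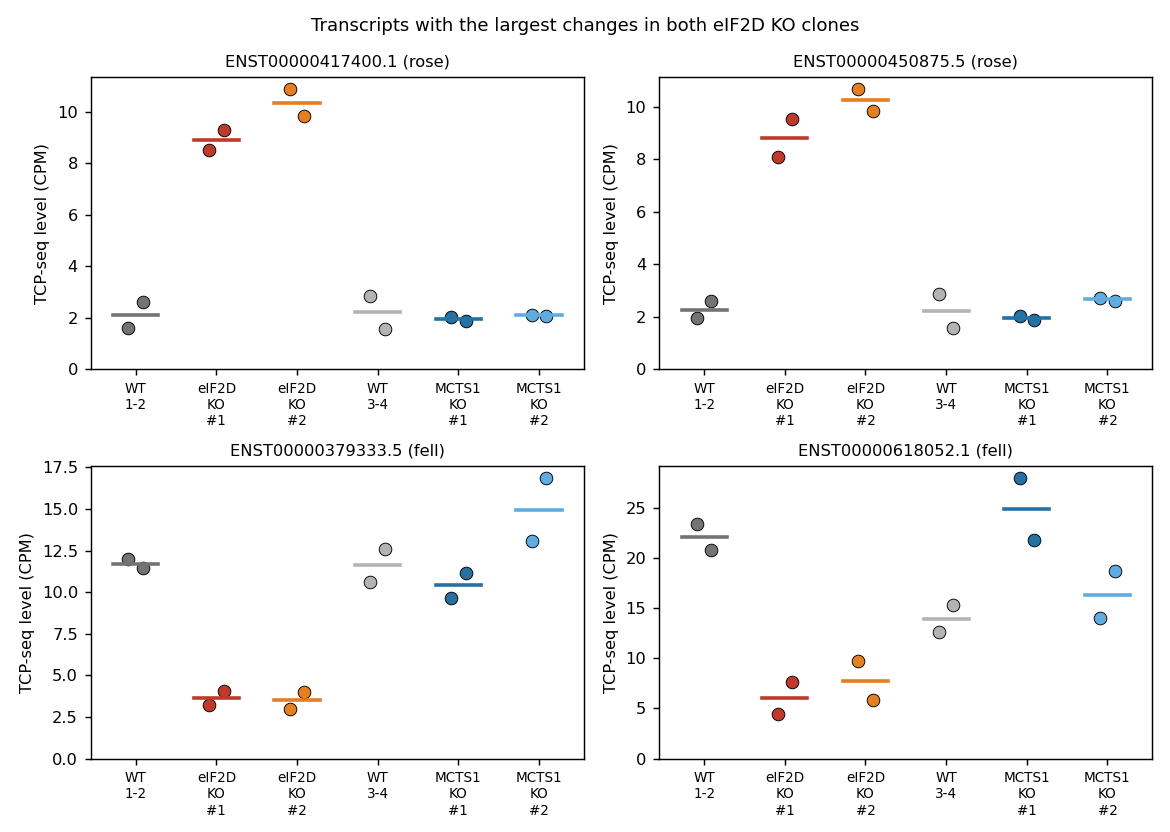
TCP-seq level (y axis, CPM of all counts in a library) of the 2 named rises and 2 named falls in both eIF2D KO clones, chosen by size of change at 5 CPM or more with 1 transcript for each group of shared reads; points are single libraries, lines are the mean of the 2 libraries of a group (x axis). In each panel the 4 eIF2D KO points lie outside the range of the 4 WT and 4 MCTS1 KO points.

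The deepest falls of the 83 by log2 change lay under the level of 5 CPM asked of named transcripts. In 3 of them WT replicates 1 and 2 had 3.12 to 6.81 CPM, and no eIF2D KO library had more than 3 counts. The deepest of the 3 (log2 change -5.84) had 3.67 and 4.21 CPM in WT replicates 3 and 4. It had 3.555 and 4.35 CPM in MCTS1 KO #1 but only 0 and 0.26 in MCTS1 KO #2. For the remaining members of the 3, every eIF2D KO library was below all WT and MCTS1 KO libraries. These 3 were singled out after their values were seen.

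The second WT pair gave a check on the 124 transcripts that does not use the levels of WT replicates 1 and 2. The KO libraries and the estimate of spread are the same. Against WT replicates 3 and 4, 38 of the 41 rises kept their sign and 20 were called higher (5.97% of all tested were), with a median log2 change of 0.67. Of the 83 falls, 80 kept their sign and 60 were called lower (4.41% of all tested), with a median of -0.66. The median rise was thus 0.67 in place of 1.36, while the median fall was -0.66 in place of -0.76.

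Medians were also taken in single libraries. Relative to the mean of WT replicates 1 and 2, the median rise of the 41 was 1.34 and 1.29 (log2) in clone 1 and 1.32 and 1.40 in clone 2, but also 0.40 in WT replicate 3 and 0.15 in WT replicate 4. The median of the 83 falls was -0.69 and -0.81 in clone 1, -0.90 and -0.79 in clone 2, -0.14 in WT replicate 3 and 0.11 in WT replicate 4. Since the transcripts were chosen on the KO libraries and on WT replicates 1 and 2, which are also the baseline here, all these medians bear that choice and are a description only.

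By the way they were chosen, 41 of the 41 rises had all 4 KO libraries above WT replicates 1 and 2 (8.78% of all tested), and 79 of the 83 falls had them below (8.64%). All 4 KO libraries were above all 4 WT libraries for 31 of the 41 rises (3.73% of all tested) and below all 4 for 61 of the 83 falls (3.66%). Adding the MCTS1 KO libraries as a bound left 22 of the 41 rises (0.943% of all tested) and 8 of the 83 falls (0.647%). Most falls thus overlapped with some MCTS1 KO library, and about as many rises as not lay above every one of them. The choice favours these wider bounds too, so the share over all tested is a low base for them. Of the 4476 tested transcripts with all 4 KO libraries above WT replicates 1 and 2, 1903 were above all 4 WT libraries. With the MCTS1 KO libraries added, 481 were left. Of the 4408 with all 4 KO libraries below, these were 1864 and 330.

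MCTS1 KO libraries were compared with WT replicates 3 and 4, which shares no library with the comparison that chose the 124 transcripts. Both comparisons came from 1 fit, with the same estimate of spread for a transcript. A transcript of low estimated spread is called more readily in both, and the part of this was not tested. In MCTS1 KO, 43 of the 83 eIF2D falls were lower (51.8%; 6.56% of all transcripts were) and 5 were higher. Among the 12748 transcripts with the highest level in WT replicates 3 and 4, where 71 of the 83 falls lay, 16% were lower in MCTS1 KO. Of these, 3651 also lay in the highest quartile of TCP-seq over WT Ribo-seq, with 47 of the 83 falls. Among the 3651, 31.6% were lower in MCTS1 KO and 11.4% higher. The level and the TCP-seq part of the ratio were read from the control libraries of the MCTS1 comparison. Of the 41 rises, 10 were higher in MCTS1 KO (24.4%; 7.28% of all were). Set against WT replicates 1 and 2 instead, whose values helped to choose the 83 falls, their medians were -0.29 and -0.37 in MCTS1 KO #1 and -0.80 and -0.62 in #2, which is a description only.

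**Figure D3:**
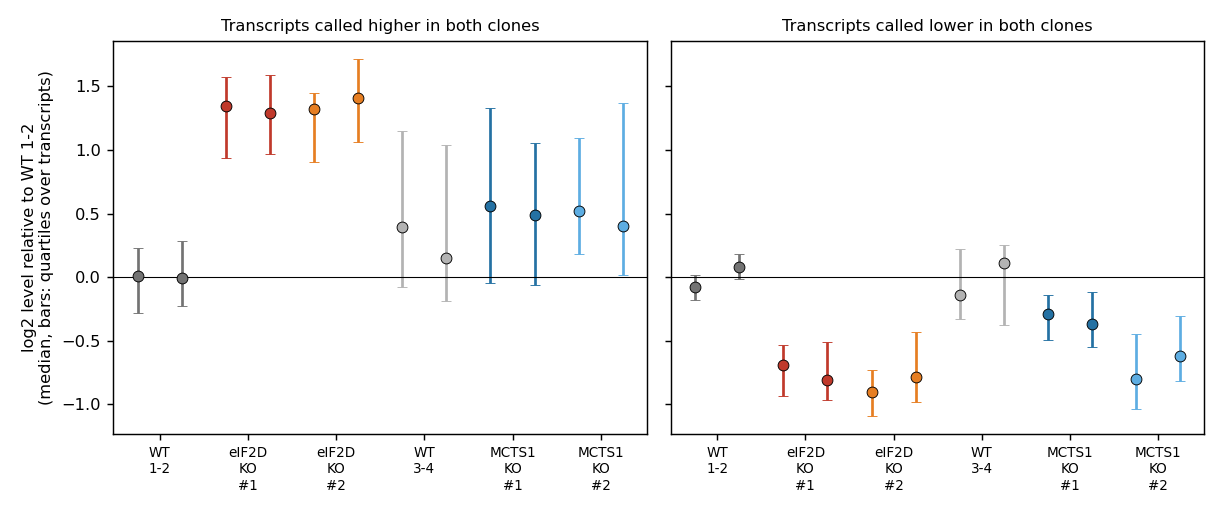
Median log2 level relative to the mean of WT replicates 1 and 2 (y axis) over the 41 transcripts called higher (left) and the 83 called lower (right) in both eIF2D KO clones, one point per library (x axis, 12 libraries), with bars from the lower to the upper quartile over transcripts. The falls sit near 0 in WT replicates 3 and 4 and below 0 in all 4 MCTS1 KO libraries, whereas the rises sit above 0 in WT 3-4 and in MCTS1 KO libraries alike; WT replicates 1 and 2, the baseline, took part in choosing the transcripts.

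The size of the background between WT pairs bears on all of these values. WT replicates 3 and 4 differed from WT replicates 1 and 2 in 1319 transcripts (2.59%; 358 or 0.702% higher and 961 or 1.88% lower), with no knockout involved, and in 377 to 789 with 1 of the 4 WT libraries left out. Between pairs from different runs of names, WT libraries varied by 1.92 to 2.84 times the counting noise, against 1.41 and 1.43 times within a pair, 1.64 within clone 1 and 1.83 within clone 2. These are ratios of variance, which rise with depth at the same real spread. Values of libraries of unlike depth are thus not strictly comparable. Against WT replicates 3 and 4, 3045 transcripts were higher and 2249 lower in the mean of KO clones (10.4%), in place of 823 in all, and 2073 or 2990 were called without WT replicate 3 or 4, respectively. Clone 1 alone had 996 higher (1.95%) and 1033 lower (2.03%; 3.98% in all) and clone 2 had 4858 higher (9.53%) and 3335 lower (6.54%; 16.1% in all). In both clones separately, 815 were higher (1.6%), 655 lower (1.28%) and 21 opposite (0.0412%). The WT pair used thus moved the count of calls, while the KO libraries stayed the same.

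Some transcripts that looked like KO changes differed between the WT pairs. ENST00000476140.3 had 8.11 and 10.9 CPM in WT replicates 1 and 2 and between 2.77 and 4.10 in the eIF2D KO libraries, and was called lower in both clones. The second WT pair had only 2.04 and 1.58 CPM, below every KO library. Its log2 change was -1.48 against WT replicates 1 and 2 (edgeR adjusted p = 0.0062) and 0.81 against replicates 3 and 4 (edgeR adjusted p = 0.38). In the other direction, ENST00000624509.1 had 4.54 and 4.16 CPM in WT replicates 1 and 2 and 26.1 and 12.1 in replicates 3 and 4, a log2 difference of 2.17 (edgeR adjusted p = 2.2e-06). The KO libraries had 5.27 and 3.00 CPM in clone 1 and 1.39 and 0.894 in clone 2, so that clone 1 was near WT replicates 1 and 2. ENST00000402676.7 had 8.43 and 11.4 CPM in WT replicates 1 and 2 against 33.8 and 43.7 in replicates 3 and 4. Its KO levels were 9.32 and 11.7 CPM in clone 1, within or near the first WT pair, and 3.96 and 2.24 in clone 2, below both pairs.

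The clones differed from each other more widely than their mean differed from WT replicates 1 and 2. Clone 1 was higher than clone 2 in 1551 transcripts (3.04%) and lower in 2647 (5.19%), 8.23% of those tested. Of these 4198, 153 were also called for the mean of clones, and 3039 were called in neither clone against WT. For 3475 the fitted WT level lay between the clones. Choosing transcripts by a difference between clones favours this, and the share over all tested transcripts was not taken. A comparison of the clones does not use WT levels, although the WT libraries enter the shared estimate of spread. Without clone 2 replicate 1 the count was 1506, without clone 1 replicate 1 it was 1514, and each clone is a single line, so the line and the knockout cannot be told apart in these transcripts.

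ENST00000380636.1 had 9.72 and 11.7 CPM in clone 1, 0.594 and 0 in clone 2, and 5.19 and 7.28 in WT replicates 1 and 2. Clone 1 had 67 counts and clone 2 had 3, a ratio of 26.6 per library total with an exact 95% counting interval from 8.71 to 132. WT replicates 3 and 4 had 7.74 and 7.89 CPM and MCTS1 KO libraries 13.2 to 21.3, so that clone 2 was apart from all other TCP-seq libraries of the comparison. ENST00000562209.1 had 19.4 and 16.9 CPM in clone 1 and 2.18 and 0.894 in clone 2, with 8.43 and 8.84 in WT replicates 1 and 2. It was called in each clone with opposite signs, 0.97 in clone 1 (edgeR adjusted p = 0.034) and -2.29 in clone 2 (edgeR adjusted p = 7.7e-05).

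In the other direction, ENST00000370867.8 had 5.67 and 2.46 CPM in clone 1 and 12.5 and 11.6 in clone 2, on either side of the 7.78 and 5.72 in WT replicates 1 and 2. The clones differed by -1.73 ± 0.33 (log2, SE, 2 libraries each; edgeR adjusted p = 5.1e-05), and neither passed against WT. ENST00000572558.5 had 4.05 and 2.18 CPM in clone 1 and 9.70 and 5.81 in clone 2, which held the 6.81 and 7.80 of WT replicates 1 and 2 between its libraries. A mean over both clones hides such transcripts.

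Properties of transcripts were read from libraries outside the comparison: the level in WT TCP-seq replicates 3 and 4, that level over WT RNA-seq or over WT Ribo-seq, WT Ribo-seq over RNA-seq, and eIF2D-V5 Sel-TCP-seq over TCP-seq or over MCTS1-V5 and DENR-V5 Sel-TCP-seq. The first property was level. The quartile of transcripts with the highest level held 357 of the 515 falls and 149 of the 308 rises. Depth moved with this: the median SE of a log2 change was 0.173 in that quartile and 0.438 in the lowest, so that smaller changes could be called there, and its part in these counts was not tested.

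Falls lay mainly among transcripts with much TCP-seq signal for their Ribo-seq signal. From the lowest to the highest quartile of that ratio, 60, 74, 82 and 282 transcripts fell and 84, 115, 78 and 31 rose. The median SE was alike over these quartiles, at 0.303 in the lowest and 0.318 in the highest. Within the quartile of highest TCP-seq level, 5.81% of those in the highest quartile of the ratio fell and 1.02% in the lowest. With library totals alone these were 131 falls in the highest and 14 in the lowest quartile, against 212 and 32.

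Ribo-seq signal per RNA-seq signal, a proxy of translation, gave another pattern. Of the transcripts in its lowest quartile 10 rose and 213 fell, and of those in its highest quartile 159 rose and 127 fell. For eIF2D-V5 Sel-TCP-seq over TCP-seq, 38 rose and 219 fell in the lowest quartile and 109 rose and 75 fell in the highest. The ratio of eIF2D-V5 to MCTS1-V5 and DENR-V5 signal showed less of a gradient, with 148 falls in its lowest quartile and 129 in its highest. WT replicates 3 and 4 enter several of these ratios, so the gradients share their values and are not separate evidence.

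**Figure D4:**
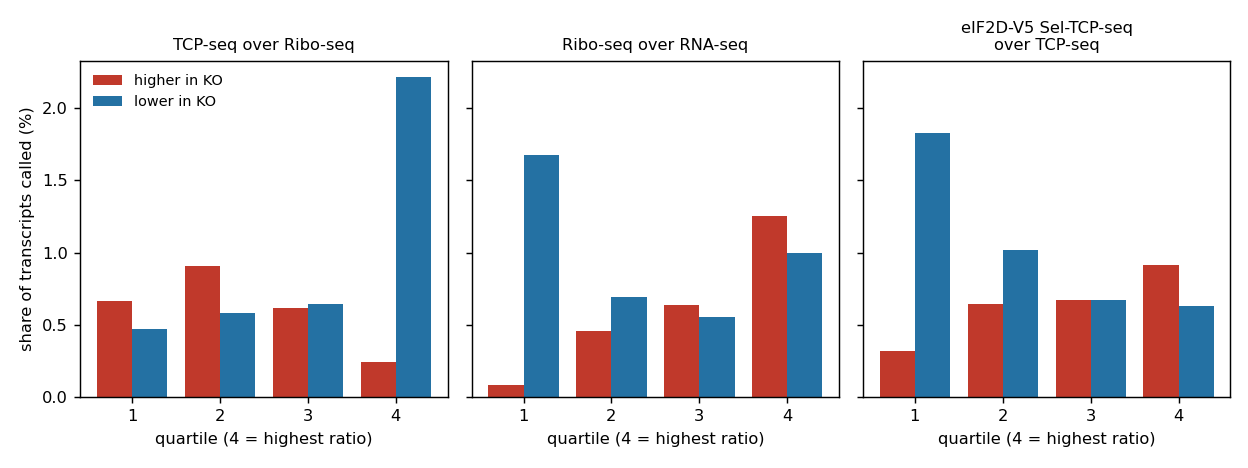
Share of transcripts called higher (red) or lower (blue) in eIF2D KO against WT replicates 1 and 2 (y axis, %) in each quartile (x axis, 4 = highest) of 3 ratios taken from libraries outside the comparison. Falls concentrate in the highest quartile of TCP-seq over Ribo-seq (282 transcripts) and in the lowest quartiles of Ribo-seq over RNA-seq (213) and of eIF2D-V5 Sel-TCP-seq over TCP-seq (219).

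A set of transcripts with TCP-seq signal but little RNA-seq signal, like ENST00000618052.1, held many of the falls. It was defined after that transcript had been seen, as a level in WT TCP-seq replicates 3 and 4 at least 16-fold above WT RNA-seq, and 1753 of the 50991 transcripts met it (3.44%). Of these, 134 fell (7.64%) and 2 rose, against 381 falls (0.774%) and 306 rises among the others. They made up 31 of the 83 falls in both clones (37.3%). Outside the set were 41 of 41 rises in both clones, but also 49238 of the 50991 tested transcripts. Within the quartile of highest TCP-seq level in WT replicates 3 and 4, 14.3% of the set fell and 2.02% of the others. The median change over the set was -0.22 on the log2 scale, -0.14 in clone 1 and -0.33 in clone 2. With library totals alone, 93 of the set fell and 6 rose.

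As a share of all counts the set did not separate KO from WT. It took 16.4% and 19.7% of the counts in WT replicates 1 and 2, 16.5% and 14.7% in clone 1, and 12.1% and 15.2% in clone 2. Clone 1 replicate 1 was as high as WT replicate 1, so the groups overlapped. The means were 14.6% ± 1.88 (SD, n = 4) in KO and 18.0% ± 2.35 (SD, n = 2) in WT, with an exact two-sided permutation p of 0.2, where 4 libraries against 2 allow no less than 0.067. The library with the most counts, clone 2 replicate 1, had the smallest share. WT replicates 3 and 4 had 19.8% and 22.9%, and MCTS1 KO libraries 13.3% to 19.2%. A high level in WT replicates 3 and 4 defined the set, which favours a high share there. Their shares are thus no fair base for the MCTS1 KO libraries. Depth and this share moved together in part, and the part of depth was not tested.

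Over all transcripts, called or not, shifts by property were at most 0.25 on the log2 scale in any KO library. Shifts of similar size were also seen in WT replicates 3 and 4, with no knockout involved. With 4 libraries against 2 an exact permutation test cannot go below 0.067, so that its p-values cannot pass 0.05 and are given as a description. The measure was the median log2 level in the highest quartile minus that in the lowest, each relative to WT replicates 1 and 2, so that the mean over the 2 WT libraries is 0. For TCP-seq over Ribo-seq it was -0.043 and -0.048 in clone 1 and -0.13 and -0.14 in clone 2, below both WT libraries at 0.0086 and -0.0086. The mean was -0.093 ± 0.054 (SD, n = 4; exact permutation p = 0.133). The shift had the sign of the falls among called transcripts and was small beside their median of -0.73. WT replicates 3 and 4 gave 0.29 and 0.32, but their values enter this ratio.

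For eIF2D-V5 Sel-TCP-seq over TCP-seq the KO mean was 0.085 ± 0.057 (SD, n = 4; exact permutation p = 0.2), and for level it was -0.099 ± 0.088 (SD, n = 4; exact permutation p = 0.2). WT replicates 3 and 4 gave -0.33 and -0.31 for that ratio and 0.064 and 0.16 for level, and both properties use their values. For 3 properties the clones were apart. TCP-seq over RNA-seq gave -0.081 in clone 1 and 0.092 in clone 2 (mean 0.0057, exact permutation p = 1, n = 4 and 2). The ratio of eIF2D-V5 to MCTS1-V5 and DENR-V5 signal gave 0.15 in clone 1 and -0.18 in clone 2 (exact permutation p = 0.867, n = 4 and 2). WT replicates 3 and 4, which do not enter this ratio, gave 0.15 and 0.25. Ribo-seq over RNA-seq gave -0.020 in clone 1 and 0.22 in clone 2 (exact permutation p = 0.4, n = 4 and 2). Here WT replicates 3 and 4, which do not enter the ratio either, gave -0.26 and -0.19.

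**Figure D5:**
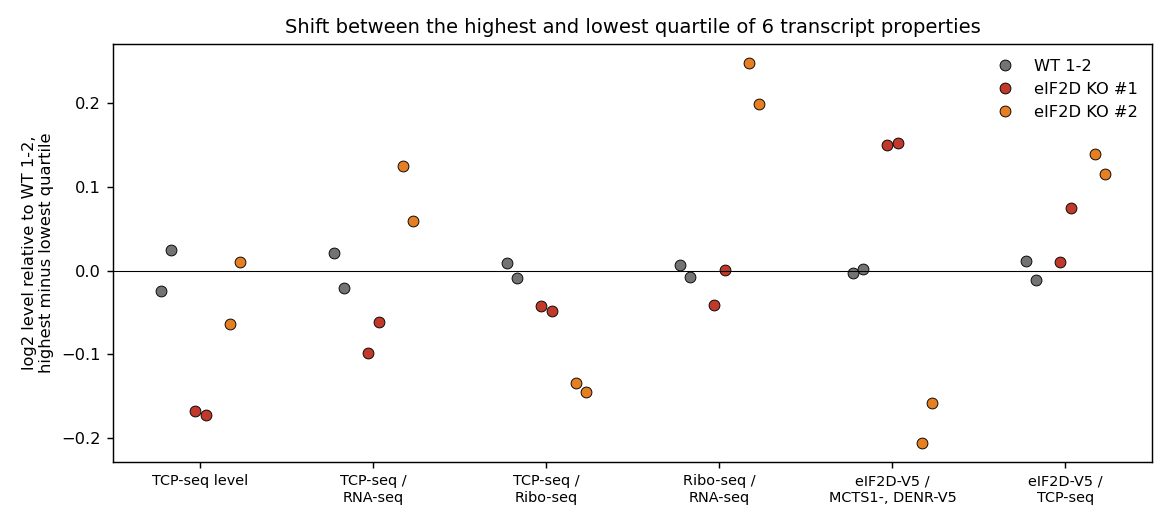
Difference between the highest and lowest quartile of each of 6 transcript properties (x axis) in median log2 level relative to WT replicates 1 and 2 (y axis), one point per library. For the ratio of eIF2D-V5 to MCTS1-V5 and DENR-V5 signal the clones lie on opposite sides of WT replicates 1 and 2, at means of 0.15 and -0.18. WT replicates 3 and 4, not drawn, had 0.15 and 0.25.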

How the data were processed

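The authors made and deposited 1 table of whole-number counts, 1 row per transcript identifier. The tools named, per the submitters' processing notes, are STAR, cutadapt, Subread and featureCounts (no versions), and the builds are hg38 and GRCh38.p13. The treatment of strand, of duplicates and of reads over several transcripts was not given in the sources used here. Since no label states that replicates are independent cultures, a p-value reflects library-to-library spread only, and that spread may be technical.

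The 12 TCP-seq libraries (4 WT, 4 eIF2D KO, 4 MCTS1 KO, of 1609303 to 5053637 counts) entered 1 fit with edgeR 4.0.16 in R 4.3.3: quasi-likelihood test, robust, TMM factors, filterByExpr with a minimum count of 10, a coefficient for each clone and WT pair, and Benjamini-Hochberg adjusted p under 0.05 over 50991 transcripts. The mean of clones weighs each clone equally and leaves the spread between clones out of its error. A standard error is that of the fitted log2 change. CPM were computed from library totals. Quartiles use log2 ratios of CPM. The scripts were tested on simulated data. DESeq2 1.42.0, other scalings, filters and WT libraries, and each library left out, were tried as alternatives.

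The rule for naming took the 2 rises and 2 falls of largest log2 change among transcripts called in each clone and in the mean, at 5 CPM or more over the 6 libraries, with 1 transcript kept for each group of shared reads (that of highest mean CPM). For the clone and WT differences the same numbers were taken after values were seen. The members and lists were chosen with earlier results of these data known. Gene lists, cell type markers and a protein property that had been planned were not used, since nothing used here pairs transcripts with genes; the ratio of Ribo-seq to RNA-seq was added.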

Additional observations from a re-analysis of the deposited data

Results flagged for a closer look

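The 2 eIF2D KO clones differed in 4198 transcripts by a direct test between them (edgeR quasi-likelihood test, adjusted p under 0.05), against 940 and 1680 for clone 1 and clone 2 against WT replicates 1 and 2. Without clone 1 replicate 1 the clones differed in 1514 transcripts and clone 2 differed from WT in 1890, so that the order turned. The named differences, clone 1 over clone 2 on the log2 scale, were 4.54 for ENST00000380636.1, 3.27 for ENST00000562209.1, -1.73 for ENST00000370867.8 and -1.54 for ENST00000572558.5. The first of these rests on 3 counts in clone 2, and its fitted value depends on the prior count.

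For 2 properties both libraries of one clone moved one way and both of the other the opposite way. The shift between the highest and lowest quartile of TCP-seq over RNA-seq was -0.0805 in clone 1 and 0.0919 in clone 2. That of eIF2D-V5 over MCTS1-V5 and DENR-V5 Sel-TCP-seq was 0.152 in clone 1 and -0.182 in clone 2, and WT replicates 3 and 4 gave 0.153 and 0.254. Neither difference was tested.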

How the results depend on the processing

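Counts of calls depended on the tool, the WT pair and single libraries. DESeq2 called 35 transcripts in the mean of clones, 208 in clone 1, 166 in clone 2, 1153 between clones, 1840 against WT 3-4, 522 between WT pairs and 6 alike in both clones. It gave no adjusted p to 48441 of 50991 transcripts in the mean of clones, 45475 in clone 1 and 40532 in clone 2, nor to the 4 named ones. Without the filter on low counts clone 1 had 583. With WT 3-4 in place of WT 1-2 the counts were 5294 (mean), 2029 (clone 1), 8193 (clone 2) and 1470 (alike), and with all 4 WT libraries as 1 group 2218, 560, 4311 and 201, and 1541 between clones. The causes were not tested. Leaving out each library in turn, which leaves 1 group with a lone library assumed to vary like the others, gave 147 to 902 calls for the mean, 268 (without WT replicate 1) to 1073 for clone 1, 255 (without clone 2 replicate 1) to 1890 for clone 2, 1506 to 3993 between clones, 37 to 157 alike, 2073 to 5644 against WT 3-4 and 377 to 789 between WT pairs, both lowest without WT replicate 3. Without WT replicate 1, ENST00000417400.1 (1.75) and ENST00000450875.5 (1.74) no longer passed. The 2 named falls passed in every alternative that gave an adjusted p. The 6 property shifts stayed within 1 SD of the KO libraries, an SD that holds the difference between clones. With a library left out, the sign turned for eIF2D-V5 over MCTS1-V5 and DENR-V5 signal (-0.071 to 0.048). It also turned for TCP-seq over RNA-seq (-0.034 to 0.041). With the replicate number as a block the counts were 850 (mean), 1038, 1622, 4034 (between clones), 153 (alike) and 4201 (WT 3-4). Same-numbered libraries had deviations correlated at -0.065, 0.041 and -0.039, which showed no pairing by number. Counting noise at such low counts could hide a weak pairing. Medians of 13 to 35 counts a transcript limit calls of small changes.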
